A study of Mus musculus with 12 samples.

Results

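The genes described are Atp1b1, Atp1b2 and Atp1b3, which encode beta subunits of the sodium pump, and Fxyd6, which encodes one of the pump's small FXYD subunits. They were taken by gene symbol from the transcript clusters (called probes here) of the Clarion S mouse array, with the brightest probe standing for a gene, and they are 4 of 19505 genes. Each of the 4 had 1 probe. In the RefSeq annotation of GRCm38.p6, Atp1b1 (gene ID 11931) lies at chr1:164437099-164458355, Atp1b2 (11932) at chr11:69599728-69605978, Atp1b3 (11933) at chr9:96332655-96364431 and Fxyd6 (59095) at chr9:45369470-45396159. They were chosen from differences already seen between the groups of these arrays, so their values are given as a description with no test.

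RNA came from mouse S100β-v-erbB/p53-/- TSC1 cells, strain FVB-NJ, grown in DMEM F-12 with B27. The groups were hypoxia with BFA (brefeldin A), hypoxia with EHT-1864, hypoxia with the solvent DMSO, and normoxia with DMSO, each for 16 h and each with 3 arrays. Every group, the DMSO groups included, carried the v-erbB oncogene, which the S100β promoter drives, and the p53 deletion, and both compounds were given in hypoxia only. The labels name 3 independent cultures, and they name no cell type. The deleted gene, Trp53, was not analysed here. EHT-1864 was used at 1 µM. For BFA the labels conflict, with 1 µM in one place and 0.1 µM in another. Brefeldin A blocks ARF exchange factors and with them transport from the endoplasmic reticulum to the Golgi, and EHT-1864 inhibits Rac GTPases.

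The sodium pump, or Na,K-ATPase, uses ATP to move sodium out of the cell and potassium in, and so sets the gradients that many channels and transporters draw on. Its alpha subunit binds the ions and splits ATP. The beta subunit is a glycoprotein that lets the alpha subunit fold, leave the endoplasmic reticulum and reach the plasma membrane, and FXYD proteins adjust the pump's affinity for its ions. The beta-2 protein, made from Atp1b2, is also known as the adhesion molecule on glia, through which neurons and glia attach to each other.

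Values are log2 signals, and "±" is the SD over 3 arrays after a group mean and the standard error of the fit across all probes after a difference. A floor was set on each array at the 95th percentile of its negative control probes. It lay at 6.37 to 6.65 with BFA, 5.88 to 6.15 with EHT-1864, 5.60 to 5.64 in hypoxia with DMSO and 5.59 to 5.64 in normoxia with DMSO. The hybridization controls averaged 10.93 ± 0.12 with BFA, 10.25 ± 0.07 with EHT-1864, 9.76 ± 0.06 in hypoxia with DMSO and 9.85 ± 0.06 in normoxia with DMSO. The floor was thus highest with BFA and next highest with EHT-1864, and the part of this in the differences given here was not tested. In these bulk arrays, fewer cells of a type and less RNA per cell cannot be told apart.

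Summed levels of oligodendrocyte progenitor and astrocyte markers were lower with each compound than in hypoxia with DMSO. The sums of the fibroblast and pericyte markers and of the microglial markers were higher, but they rest mostly on signals under the floor. The floor was itself higher with the compounds, so no rise of these cell types is read from the sums. Of the 6 measured progenitor markers, 5 lay above the floor on every BFA array and all 6 did so on every array of the other groups, Olig1, Olig2 and Sox10 among them. The log2 of their summed signal was 10.19 to 10.27 with BFA, 12.10 to 12.39 with EHT-1864, 13.39 to 13.42 in hypoxia with DMSO and 13.42 to 13.49 in normoxia. Of the 8 astrocyte markers, 2 lay above the floor on every BFA array, with a summed level of 9.09 to 9.42, and 3 on every EHT-1864 array, with 10.56 to 10.69. In hypoxia with DMSO 4 did so, with 11.04 to 11.10, and in normoxia with DMSO 3, with 10.96 to 10.98. S100b and Fgfr3 were above it in all 4 groups. Of 7 neuronal markers, 1 or 2 passed the floor on all arrays of a given group. Of 6 microglial markers, 0 did so with BFA and 1 (Tmem119) in each other group. Of 6 fibroblast and pericyte markers 1 (Col1a1) did so in every group, and of 5 endothelial markers 0. The summed level of the fibroblast and pericyte markers was 7.45 to 7.74 with BFA, 7.26 to 7.32 with EHT-1864, 6.85 to 6.99 in hypoxia with DMSO and 7.13 to 7.19 in normoxia. That of the microglial markers was 7.02 to 7.32 with BFA, 7.20 to 7.47 with EHT-1864, 6.80 to 6.91 in hypoxia with DMSO and 6.78 to 7.18 in normoxia. The endothelial sum, with 0 genes above the floor, was 5.81 to 6.38 with BFA and 5.99 to 6.13 with EHT-1864. It was 5.79 to 5.86 in hypoxia with DMSO and 5.68 to 5.83 in normoxia. What part of the marker shifts enters the pump genes' values was not tested.

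In hypoxia with DMSO, Atp1b1 had log2 signals of 9.02, 9.05 and 9.02, against 8.24, 8.35 and 8.30 in normoxia with DMSO. The groups did not overlap, and every hypoxia array was higher than every normoxia array. The difference was 0.73 ± 0.16, or 1.66-fold. That standard error pools the spread of all 4 groups, which was unequal. The SD of Atp1b1 was 0.02 in hypoxia with DMSO and 0.05 in normoxia, but 0.25 with BFA and 0.29 with EHT-1864. Atp1b1 encodes the beta-1 subunit, the most widespread partner of the alpha subunits.

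Atp1b2 differed less, with 8.79, 8.88 and 8.67 in hypoxia with DMSO against 8.58, 8.51 and 8.49 in normoxia. These groups also did not overlap, and the difference was 0.25 ± 0.14. Atp1b3, the beta-3 gene, had 9.01, 9.12 and 8.95 in hypoxia with DMSO and 9.30, 9.05 and 9.17 in normoxia. Its groups overlapped, with a difference of -0.15 ± 0.14. Fxyd6 encodes phosphohippolin, a pump modulator known from brain, and had 8.25, 8.07 and 8.06 in hypoxia with DMSO and 7.998, 8.24 and 8.02 in normoxia. Its groups overlapped as well, and the difference was 0.04 ± 0.12.

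For 2 of the 4 genes, then, all hypoxia arrays lay above all normoxia arrays, and 14.0% of all 22206 probes did the same. Among 3054 probes that averaged between 8 and 9.5 in hypoxia with DMSO, the band that holds all 4 genes, 97.3% had a lower hypoxia minus normoxia difference than Atp1b1. For Atp1b2, Atp1b3 and Fxyd6 the shares were 82.0%, 27.3% and 57.1%. Because the genes were chosen on these differences, nothing is read from the shares.

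**Figure D1:**
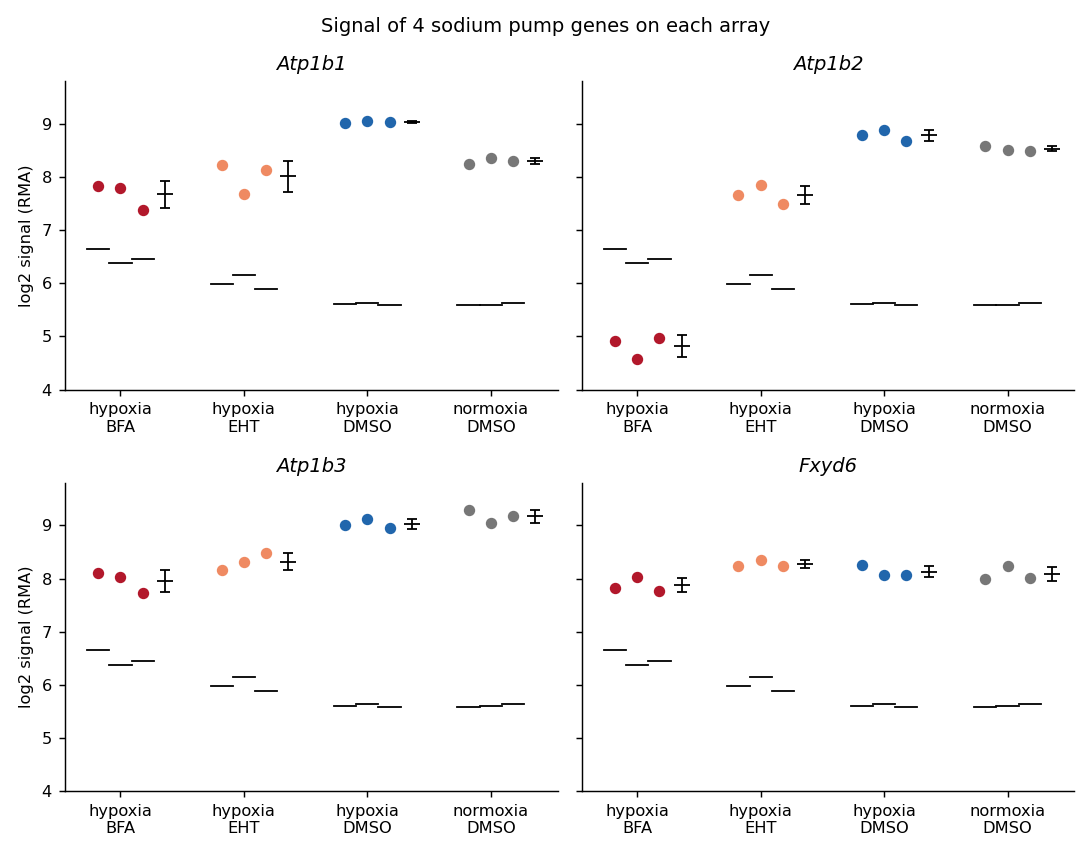
Log2 signal of Atp1b1, Atp1b2, Atp1b3 and Fxyd6 (vertical axis) on each array, by group (BFA, EHT-1864 and DMSO in hypoxia, then DMSO in normoxia). Points are arrays, the cross beside them is the group mean with a bar of 1 SD, and the short horizontal lines under the points (over them for Atp1b2 with BFA) are each array's floor. The BFA arrays of Atp1b2, between 4.58 and 4.97, are the only points below their floor.

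The 250 bases before the annotated starts are shown because Atp1b1 was higher in hypoxia while Atp1b3 and Fxyd6 overlapped between the groups. They were searched for ACGTG and GCGTG, the letters of the core of hypoxia response elements, on both strands. Sequences are from RefSeq, assembly GRCm38.p6, printed 5′ to 3′ on the gene's strand with matches in capitals, and 3 of the 4 genes were in the table.
Atp1b1, chr1:164458356-164458605, minus strand: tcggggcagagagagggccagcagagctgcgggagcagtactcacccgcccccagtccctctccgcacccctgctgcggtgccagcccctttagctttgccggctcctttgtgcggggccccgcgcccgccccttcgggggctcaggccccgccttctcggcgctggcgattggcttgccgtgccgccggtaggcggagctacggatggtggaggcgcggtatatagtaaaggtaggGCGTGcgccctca
Atp1b3, first start, chr9:96364432-96364681, minus strand: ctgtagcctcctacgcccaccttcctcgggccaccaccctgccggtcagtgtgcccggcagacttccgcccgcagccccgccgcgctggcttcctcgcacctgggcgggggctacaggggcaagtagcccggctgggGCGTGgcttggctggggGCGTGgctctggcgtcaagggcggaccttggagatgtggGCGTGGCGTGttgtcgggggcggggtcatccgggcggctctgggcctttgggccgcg
Atp1b3, second start, chr9:96363716-96363965, minus strand: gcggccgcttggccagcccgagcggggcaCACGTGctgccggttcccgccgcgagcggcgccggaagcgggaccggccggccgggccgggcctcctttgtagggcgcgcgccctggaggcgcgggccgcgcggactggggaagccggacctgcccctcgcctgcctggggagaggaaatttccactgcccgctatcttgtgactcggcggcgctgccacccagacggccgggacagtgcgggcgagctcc
Fxyd6, chr9:45369935-45370184, plus strand: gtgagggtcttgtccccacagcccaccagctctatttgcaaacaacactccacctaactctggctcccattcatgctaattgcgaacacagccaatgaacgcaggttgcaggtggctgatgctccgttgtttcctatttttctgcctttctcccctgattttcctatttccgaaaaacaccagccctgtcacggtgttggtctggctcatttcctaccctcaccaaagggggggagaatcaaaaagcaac

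The Atp1b1 window held 1 match, whose first base was 13 bases before the start, in a window of 70.4% G and C. The first Atp1b3 window held 4 matches, at 113, 96, 57 and 52 bases before the start, and was 73.6% G and C. The second Atp1b3 window had 2 matches that overlap as one palindrome, one read on each strand, at 221 and 220 bases. The Fxyd6 window, at 50.4% G and C, held 0 matches. That window lies inside the Fxyd6 span given at the opening, before an inner start. The bases before the gene's outer start were not searched, so nothing is said of them. Of all 32851 windows of this length, 38.6% held at least 1 match and 16.7% held 2 or more.  A match is a run of letters and not a shown binding site, and none of these windows was measured for binding here.

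Genes of the pump's surroundings were taken from 4 lists: other pump subunits (7 of 11 measured), ion transporters that use or set the sodium and potassium gradients (21 of 26), pump partners and regulators (18 of 18) and related P-type pumps (6 of 7). The lists were chosen with earlier results of these data known, so counts of calls in them are no independent test. The listed genes were tested in the fit across all 22206 probes, with Benjamini-Hochberg adjustment over all of them. In hypoxia with DMSO against normoxia, 2.11% of all probes were called higher and 0.563% lower at an adjusted p under 0.05. Of the 52 listed genes, 6 rose and 0 fell by limma, and at an unadjusted p under 0.05 the counts were 10 higher and 2 lower.

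Slc1a4, a sodium-coupled carrier of neutral amino acids, rose by 1.21 ± 0.22 (adjusted p = 0.00970). Slc1a2, a glial glutamate transporter, was at least 1.42-fold higher (adjusted p = 0.0291), a bound because it was not above the floor on any normoxia array. Vhl, the ubiquitin ligase subunit that marks hypoxia-inducible factors for breakdown, rose by 0.74 ± 0.15 (adjusted p = 0.0178). Cav1, the coat protein of caveolae, was at least 1.55-fold higher (adjusted p = 0.0262), Ank2, an ankyrin that anchors the pump, rose by 0.69 ± 0.17 (adjusted p = 0.0485), and Atp4a, the alpha subunit of the gastric proton pump, rose by 0.74 ± 0.17 (adjusted p = 0.0355). Atp4a was above the floor on 1 of 3 normoxia arrays.

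These calls were fragile. Without any 1 of the 6 arrays compared, 1 or 2 of the 6 remained, and without normoxia array 3 Slc1a4 was not called (adjusted p = 0.0579). The list medians were 0.12 for the transporters, 0.06 for the partners, -0.07 for the other subunits and -0.17 for the related P-type pumps, against -0.03 over all probes.

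With BFA in hypoxia, Atp1b2 had log2 signals of 4.92, 4.58 and 4.97, against 8.79, 8.88 and 8.67 in hypoxia with DMSO. All 3 BFA arrays were below their floor and all 3 DMSO arrays far above it. The BFA group averaged 4.82 ± 0.21 and the DMSO group 8.78 ± 0.10. With the BFA floor as the lower limit, Atp1b2 was at least 4.88-fold lower with BFA than with DMSO in hypoxia, and at least 4.10-fold lower than in normoxia with DMSO.

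Atp1b1 had 7.83, 7.80 and 7.38 with BFA, against 9.02, 9.05 and 9.02 in hypoxia with DMSO. It stayed above the floor on every array, the groups did not overlap, and the difference was -1.36 ± 0.16, or 2.57-fold lower. Its BFA arrays also lay below all normoxia arrays, with a difference of -0.63 ± 0.16. The BFA group averaged 7.67 ± 0.25, the hypoxia group with DMSO 9.03 ± 0.02 and the normoxia group 8.30 ± 0.05.

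Atp1b3 had 8.11, 8.03 and 7.72 with BFA, against 9.01, 9.12 and 8.95 in hypoxia with DMSO. Here too no BFA array reached a DMSO array, and the difference was -1.07 ± 0.14, or 2.10-fold lower. Against normoxia it was -1.22 ± 0.14.

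Fxyd6 had 7.82, 8.03 and 7.77 with BFA, against 8.25, 8.07 and 8.06 in hypoxia with DMSO. The BFA arrays were all lower, with the highest of them close to the lowest DMSO array, and the difference was -0.25 ± 0.12. Its sign depended on the scaling: it was 0.0574 after another quantile normalization and 0.0907 relative to probes of like level. No direction is given for Fxyd6 with BFA.

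All 4 genes had every BFA array below every hypoxia DMSO array, and 27.3% of all probes did. The differences of the 4 genes had a median of -1.21, against 0.11 over all probes. Probes of the same band of level were lower as a whole, with a median of -0.35 and with 10th and 90th percentiles of -1.50 and 0.48. The band was picked by level on the hypoxia DMSO arrays, which also enter this difference. How far that choice lowers the band's median was not tested. Relative to the band's median, Atp1b1 was at -1.01 and Atp1b3 at -0.72, and no such value is given for Atp1b2, which was below the floor on every BFA array. The genes were chosen on these differences, so nothing is read from their place among all probes.

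**Figure D2:**
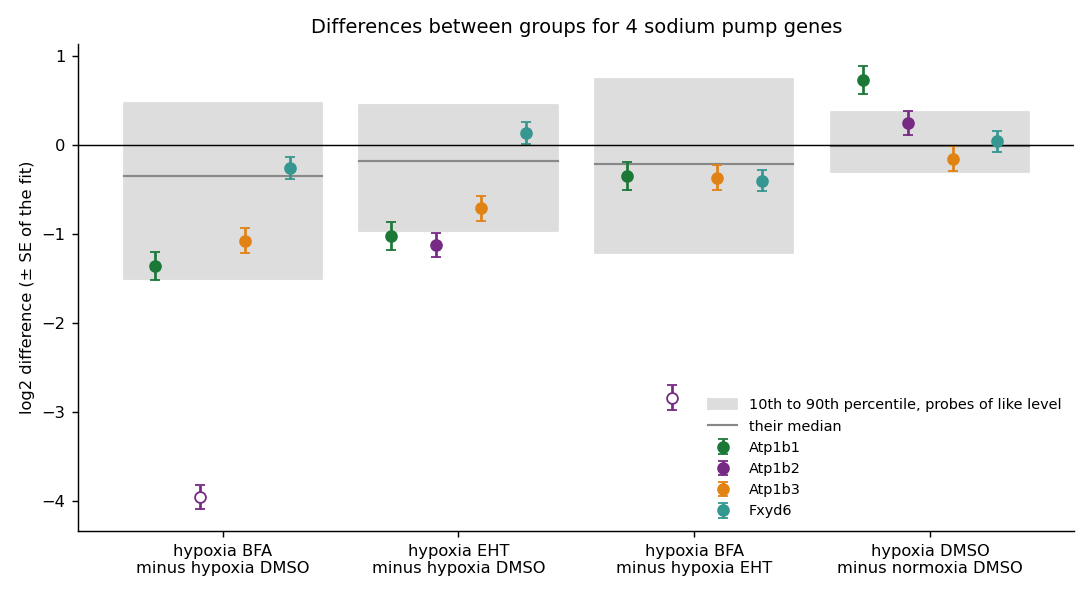
Log2 difference (vertical axis) of each of the 4 genes in the 4 comparisons, with bars of 1 standard error, n = 3 arrays per group. Grey bands span the 10th to 90th percentile of probes of like level, with a line at their median, and open points mark a group below the floor. With BFA against DMSO in hypoxia, Atp1b2 lies at -3.96 on the measured scale, with its BFA arrays below the floor, while Fxyd6 lies at -0.25 in that comparison.

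In the lists, falls with BFA in hypoxia were most frequent among the partners. Over all probes, 26.1% were called higher and 24.6% lower with BFA than with DMSO in hypoxia. Of 18 partners and regulators, 14 fell and 2 rose, with a median of -1.01. Of 21 transporters, 8 fell and 3 rose, with a median of -0.30. The related P-type pumps had 3 rises and 1 fall among 6, and the other pump subunits had 1 fall among 7. Of the 8 rises in all lists, 6 were of genes not above the floor on any array of either group, as were 0 of the 24 falls. The other rises were Scn8a, of the transporters, and Ank2, of the partners, each above the floor on all arrays of both groups. Scn8a rose by 0.90 ± 0.15 (adjusted p = 0.000314) and Ank2 by 0.80 ± 0.17 (adjusted p = 0.00162).

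Kcnj10, the inward rectifier through which glia take up potassium, fell by 3.31 ± 0.15 (adjusted p = 6.09e-09), with 2 of 3 BFA arrays above the floor. Slc12a2, a sodium, potassium and chloride cotransporter, fell by 1.18 ± 0.14 (adjusted p = 1.64e-05). Slc1a3, a glial glutamate transporter, fell by 1.64 ± 0.19 (adjusted p = 1.79e-05), with 2 of 3 BFA arrays above the floor. Slc6a6, the taurine transporter, fell by 1.27 ± 0.17 (adjusted p = 5.41e-05), and Slc38a1, a carrier of neutral amino acids, fell by 0.68 ± 0.11 (adjusted p = 0.000277). Slc1a2 was also called lower (adjusted p = 4.16e-07), but it was below the floor on all BFA arrays and its DMSO level was under that floor, so no fold is given. Slc1a3 and Slc1a2 also stand among the astrocyte markers above.

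Among the partners, Nkain1, which encodes a membrane protein that binds the beta-1 subunit, was at least 4.71-fold lower with BFA (adjusted p = 7.34e-08). Hepacam, a glial adhesion molecule, was at least 1.98-fold lower (adjusted p = 1.32e-06) and Src, a kinase that associates with the pump, at least 1.99-fold lower (adjusted p = 2.94e-06). Sgk1, a kinase that promotes sodium transport, fell by 1.68 ± 0.15 (adjusted p = 1.41e-06), with 1 of 3 BFA arrays above the floor. Cav1 and Ank3, an ankyrin that anchors channels, were called lower too (adjusted p = 1.40e-05 and 3.70e-05), with BFA arrays below a floor that exceeded their DMSO level. Atp4a was in the same position (adjusted p = 0.00163).

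Fxyd1, or phospholemman, was the one other pump subunit that passed the floor on every array of any group. It averaged 6.15 ± 0.25 with BFA and 6.91 ± 0.35 in hypoxia with DMSO, and was at least 1.34-fold lower (adjusted p = 0.00471, or 0.0827 after another quantile normalization). Atp1a4, Atp1b4, Fxyd2, Fxyd4 and Fxyd7 were not above the floor on any of the 12 arrays. The 4 remaining listed subunit genes were not analysed here.

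With EHT-1864 in hypoxia, Atp1b2 had log2 signals of 7.66, 7.84 and 7.48, against 8.79, 8.88 and 8.67 in hypoxia with DMSO. Every EHT-1864 array was lower, yet well above its floor, and the difference was -1.12 ± 0.14, or 2.17-fold lower. These arrays also lay below the normoxia arrays, with a difference of -0.87 ± 0.14.

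Atp1b1 had 8.23, 7.68 and 8.13 with EHT-1864, against 9.02, 9.05 and 9.02 in hypoxia with DMSO. The groups did not overlap, and the difference was -1.02 ± 0.16, or 2.02-fold lower. Against normoxia it was -0.28 ± 0.16, so the EHT-1864 level lay nearer to the normoxia level than to the hypoxia level with DMSO. Atp1b3 had 8.16, 8.30 and 8.49 with EHT-1864, against 9.01, 9.12 and 8.95 in hypoxia with DMSO, again without overlap. Its difference was -0.71 ± 0.14, or 1.63-fold lower, and -0.86 ± 0.14 against normoxia.

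Fxyd6 differed from the beta genes in sign, with 8.23, 8.35 and 8.23 with EHT-1864 against 8.25, 8.07 and 8.06 in hypoxia with DMSO. The groups overlapped, and the difference was 0.14 ± 0.12. The 3 beta genes were lower without overlap, as were 24.3% of all probes, and the median of the 4 genes was -0.86, against 0.06 over all probes. Probes of like level had a median of -0.18. The BFA and EHT-1864 comparisons share their 3 hypoxia DMSO arrays.

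Over all probes, 13.0% were called higher and 17.4% lower with EHT-1864 than with DMSO in hypoxia. This balance depended on the scaling, with 2893 probes called higher and 3874 lower as deposited but 3705 higher and 3430 lower after each array's median was subtracted. Of the 21 transporters, 13 fell and 1 rose, with a median of -0.82. The rise was that of Scn8a, by 0.50 ± 0.15 (adjusted p = 0.0231). Slc12a2 fell by 1.03 ± 0.14 (adjusted p = 0.000144), Kcnj10 fell by 1.26 ± 0.15 (adjusted p = 5.30e-05), Slc6a6 fell by 1.08 ± 0.17 (adjusted p = 0.000490), Slc38a1 fell by 0.83 ± 0.11 (adjusted p = 0.000164) and Slc38a2, another carrier of neutral amino acids, fell by 0.96 ± 0.15 (adjusted p = 0.000519). Slc1a2 was at least 1.08-fold lower (adjusted p = 2.86e-05), with no EHT-1864 array above the floor.

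The partners split, with 7 falls and 2 rises among 18 and a median of -0.13. The rises were Nedd4l, a ubiquitin ligase that removes sodium channels from the membrane, by 1.25 ± 0.13 (adjusted p = 2.01e-05), and Sik1, a salt-inducible kinase, by 1.65 ± 0.20 (adjusted p = 5.70e-05). Prkcz, an atypical protein kinase C, fell by 0.86 ± 0.13 (adjusted p = 0.000339), Agrn, the proteoglycan agrin, fell by 0.94 ± 0.15 (adjusted p = 0.000433), Sgk1 fell by 0.93 ± 0.15 (adjusted p = 0.000532) and Vhl fell by 0.82 ± 0.15 (adjusted p = 0.00121). Of the other pump subunits 0 were called by limma and 0 had an unadjusted p under 0.05. Of the related P-type pumps 2 were called higher, both without an array above the floor in either group.

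**Figure D3:**
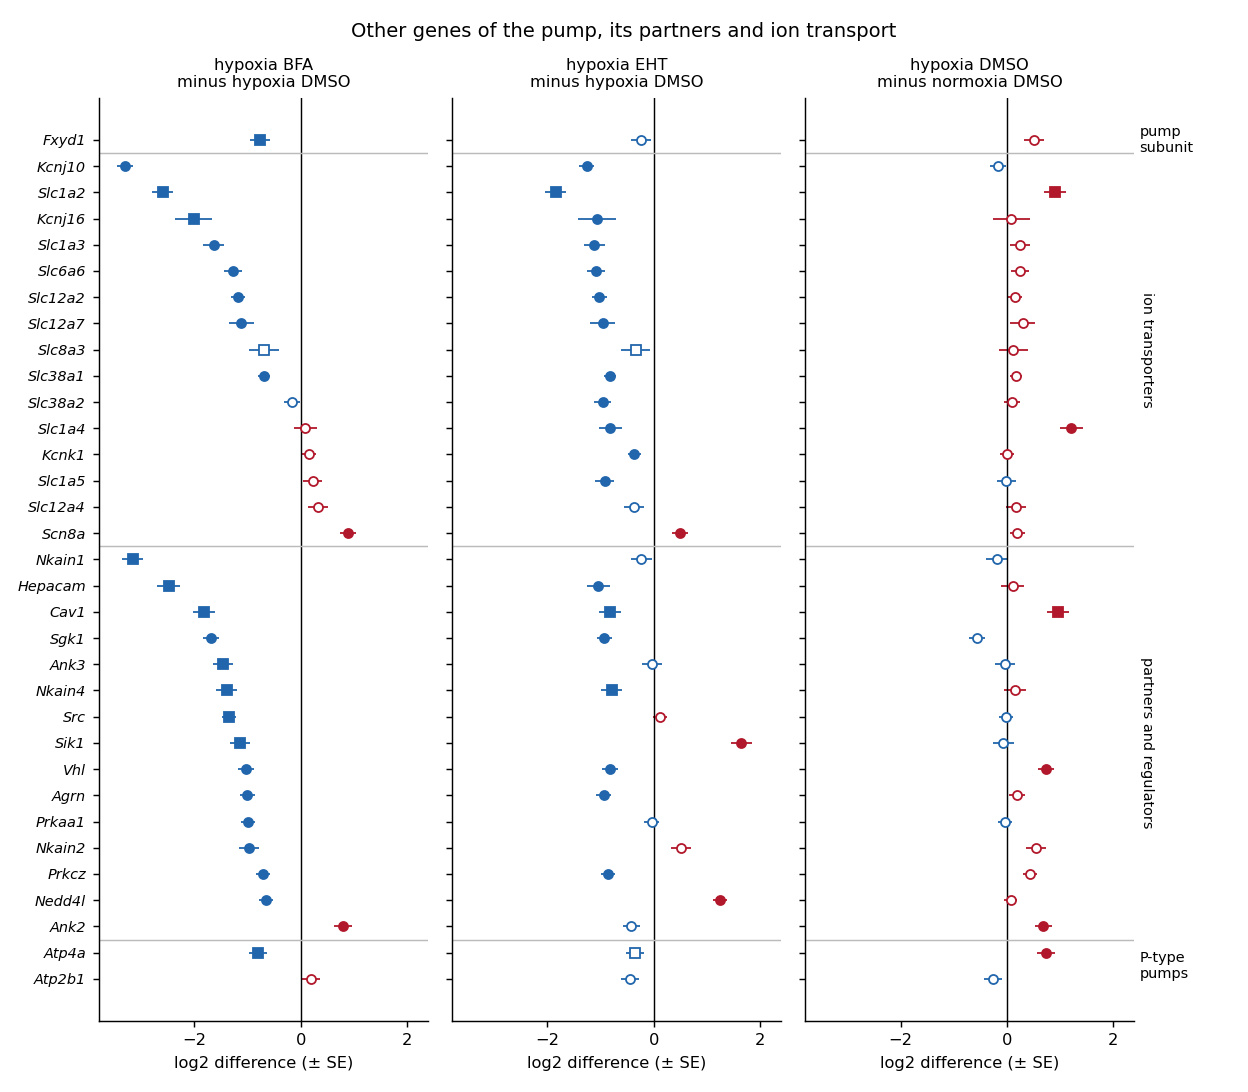
Log2 difference (horizontal axis) of 33 listed genes above the floor on all arrays of at least 1 group, by list, for the compounds, each set against hypoxia with DMSO, and for hypoxia against normoxia, with bars of 1 standard error, n = 3 arrays per group. Filled marks passed an adjusted p of 0.05, open marks did not, and squares mark genes below the floor on all arrays of one of the groups compared, whose measured difference is no fold. Kcnj10 lies at -3.31 with BFA and at -1.26 with EHT-1864, each against DMSO in hypoxia.

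Set directly against EHT-1864, BFA gave lower values for 3 of the 4 genes without overlap, while Atp1b1 overlapped. Lower values without overlap were found for 22.0% of all probes. Atp1b2 was at least 2.25-fold lower with BFA than with EHT-1864, with all BFA arrays at or below 4.97 and all EHT-1864 arrays at or above 7.48. Atp1b3 differed by -0.36 ± 0.14 and Fxyd6 by -0.40 ± 0.12. Atp1b1 differed by -0.34 ± 0.16, with 7.83 as its highest BFA array and 7.68 as its lowest EHT-1864 array. The median of the 4 was -0.38, against 0.06 over all probes and -0.21 over probes of like level.

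Of all probes, 16.9% were called higher and 19.6% lower with BFA than with EHT-1864 (3760 and 4348 probes, or 3987 and 3979 after another quantile normalization). Of the 18 partners, 11 were lower and 1 higher, with a median of -0.85. Nedd4l averaged 7.10 ± 0.16 with BFA and 8.99 ± 0.17 with EHT-1864, a difference of -1.90 ± 0.13 (adjusted p = 2.03e-07). Sik1 was at least 3.13-fold lower (adjusted p = 2.66e-07), Nkain1 at least 4.02-fold lower (adjusted p = 2.07e-07) and Src at least 2.15-fold lower (adjusted p = 1.87e-06) with BFA. Nkain2, a relative of Nkain1, was lower by -1.49 ± 0.19 (adjusted p = 3.56e-05). Ank3 was also called lower (adjusted p = 5.02e-05), with no fold given because its EHT-1864 level was under the BFA floor.

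Of the 21 transporters, 5 were higher and 3 lower, with a median of 0.14. Of the 16 listed genes called lower with BFA than with EHT-1864, 5 were not above the floor on any array of either group. Slc1a5, a carrier of neutral amino acids, was higher with BFA than with EHT-1864 by 1.15 ± 0.18 (adjusted p = 0.000232), Slc1a4 by 0.91 ± 0.22 (adjusted p = 0.00536), Slc38a2 by 0.80 ± 0.15 (adjusted p = 0.00113), Slc12a4, a potassium and chloride cotransporter, by 0.69 ± 0.19 (adjusted p = 0.00986) and Kcnk1, a potassium channel, by 0.52 ± 0.13 (adjusted p = 0.00546). Kcnj10 was lower by -2.04 ± 0.15 (adjusted p = 3.62e-07), with 2 of 3 BFA arrays above the floor. Fxyd1 was at least 1.13-fold lower (adjusted p = 0.0458), a call lost in 12 of 18 other settings.

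Within each gene, the levels ordered the groups in different ways. For Atp1b1 and Atp1b2 the order from high to low was hypoxia with DMSO, normoxia with DMSO, EHT-1864, BFA. For Atp1b2 no neighbours in that order overlapped, and for Atp1b1 BFA and EHT-1864 did. For Atp1b3 normoxia with DMSO came first and overlapped with hypoxia with DMSO, followed by EHT-1864 and BFA. For Fxyd6 the order was EHT-1864, hypoxia with DMSO, normoxia with DMSO, BFA, and all neighbours overlapped.

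Over the 12 arrays, which share their groups and their background, the log2 signals had r = 0.76 between Atp1b1 and Atp1b2, 0.76 between Atp1b1 and Atp1b3 and 0.86 between Atp1b2 and Atp1b3. Fxyd6 had r = 0.32 with Atp1b1, 0.59 with Atp1b2 and 0.28 with Atp1b3. These are descriptions with no p, and those of Atp1b2 include its BFA values under the floor.

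Among 9784 genes compared over the 12 arrays, those with the pattern most like Atp1b2 were Ppfibp1, Scd1, Septin3, Bcas1 and Mmp16, with r between 0.995 and 0.998. Ppfibp1 and Septin3, like Atp1b2 itself, were below the floor on every BFA array, so their r rests partly on values under background. Scd1 encodes a fatty acid desaturase and Mmp16 a membrane-bound metalloproteinase. For Atp1b1 they were 2510009E07Rik, Pcdhb16, Mr1, Rcor2 and Pcgf5, with r of 0.95 to 0.96. Pcdhb16 belongs to a family of similar protocadherins, and whether its probe reads others of them was not tested. Pcdhb16 and Mr1 passed the floor on the hypoxia DMSO arrays and on no array of the other groups, and 0 of these 5 genes were above it on all 12 arrays. For Atp1b3, Smpdl3b, Dennd2a, Shc4, Man2a2 and Nudt19 had r of 0.98, and for Fxyd6, Ppp2r5e, Zcwpw1, S100a10, Ppargc1b and Cpped1 had r of 0.90 to 0.96. Smpdl3b, Dennd2a, Shc4, Zcwpw1 and Ppargc1b had no BFA array above the floor. Man2a2 encodes a Golgi mannosidase and Ppp2r5e a regulatory subunit of protein phosphatase PP2A.

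**Figure D4:**
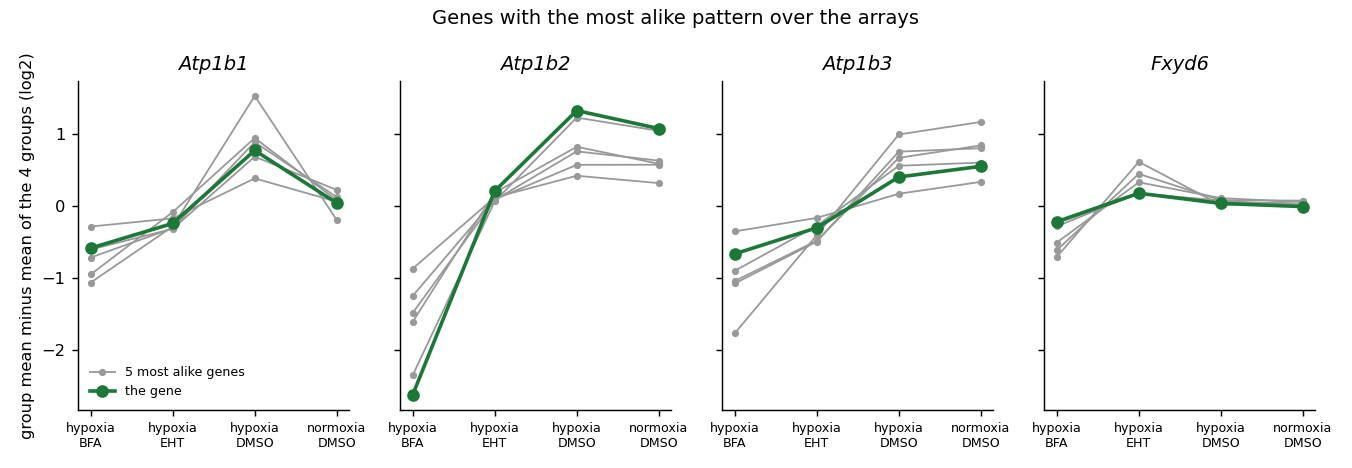
Group mean of log2 signal minus the mean of the 4 groups (vertical axis), for each of the 4 genes (green) and the 5 genes most like it over the arrays (grey). Lines join groups for the eye and stand for no order in time or dose. Measured values under the floor are plotted too, among them those of Atp1b2 with BFA. The genes beside Atp1b2 have r of at least 0.995 with it, while those beside Fxyd6 have 0.90 to 0.96.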

How the data were processed

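RNA of the cultures was measured on 12 Clarion S arrays, 3 per group. The deposited values are log2 signals that the authors made by RMA in Affymetrix Expression Console, per the submitters' processing notes. Versions and genome build are not given in the sources used here. RMA draws the arrays' distributions together, which hides differences in total RNA between cultures. Of 28846 rows, 6640 controls were left out and 22206 probes tested, of which 19572 had 1 symbol, 0 several and 2634 none.

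All 12 arrays entered 1 limma fit (version 3.58.1 in R 4.3.3, lmFit and eBayes, residual df 8), checked on simulated data, with Benjamini-Hochberg adjustment over all probes and a threshold of 0.05. The p-values set a group difference against the spread between arrays within groups, pooled over the 4 groups. That spread may be partly technical. The number of arrays limits the precision. Where no array of a group exceeded the floor, the gene got a bound, from the higher of floor and signal on each array. Where only some arrays did, the measured difference is given with their number, and its size cannot be set beside a bound. Every such bound depends on the percentile chosen for the floor. Gene coordinates are those of RefSeq, assembly GRCm38.p6.

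The 4 genes and the lists were chosen with earlier results of these data known. Named list genes are, per list and comparison, up to 6 called genes of smallest adjusted p, above the floor on all arrays of at least 1 group. Scn8a and Ank2 are named besides, for their rises with the compounds. Genes most like each of the 4 are the 5 of highest Pearson r. Alternatives covered scaling, dim probes, the floor, the variance model, the samples fitted, the replicate block and leaving out each array. The comparison with probes of like level was chosen after seeing the data. Their level was taken in hypoxia with DMSO, a group that enters the differences with normoxia and with each compound. The effect of that choice on their medians was not tested.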

Additional observations from a re-analysis of the deposited data

How the results depend on the processing

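Of 304 values of the 4 genes' differences under other settings, 291 moved by less than the spread between arrays, 11 moved by more in the same direction and 2 changed sign by more than that spread. Both were Fxyd6 with BFA against DMSO in hypoxia, at 0.0574 after another quantile normalization and 0.0907 relative to probes of like level, and the cause was not tested. Atp1b1, Atp1b2 and Atp1b3 kept their sign in all 4 comparisons under all settings run. The quantile normalization gave -1.06 for Atp1b1 and -0.78 for Atp1b3 with BFA against DMSO in hypoxia. When each of the 12 arrays was left out in turn, Atp1b1 in hypoxia against normoxia ranged from 0.70 to 0.76, Atp1b2 from 0.20 to 0.30 and Fxyd6 from -0.02 to 0.12, across zero but within its spread. With BFA against DMSO in hypoxia, Atp1b1 ranged from -1.44 to -1.21 and Atp1b3 from -1.15 to -0.95. A floor at the 99th percentile of the negative controls left 0 of the 4 genes above it on all arrays with BFA and 0 with EHT-1864, against 3 in each DMSO group, so background limits the levels under both compounds.

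Counts of calls moved by over 1.5 times for hypoxia against normoxia with DMSO alone. The 593 probes called became 1221 with a trended and robust variance, 1234 with the 6 arrays of those groups alone, and 254 to 898 when single arrays were left out, lowest without normoxia array 3 and highest without BFA array 1. The 6 list genes called became 1 to 6 when single arrays were left out. The balance of higher and lower calls turned with the scaling for EHT-1864 against DMSO in hypoxia, from 2893 higher and 3874 lower to 3705 and 3430 after median subtraction. The labels do not say whether arrays of equal number share a culture. Of 18 correlations between same-number arrays, taken on deviations from the group means, 1 exceeded 0.1 (range -0.18 to 0.17). Arrays of different number were not compared, so these values cannot settle the pairing. With the replicate block, 442 probes and 3 list genes were called for hypoxia against normoxia, and it changed no other count by over 1.5 times: 10938 probes were called for BFA and 6349 for EHT-1864, each against DMSO, and 7816 for BFA against EHT-1864. Without it these were 11269, 6767 and 8108.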
